A study of Anas platyrhynchos with 18 samples.

Results

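miR-148a is a vertebrate miRNA cut from a single hairpin, mir-148a, which yields miR-148a-3p from its 3′ side and miR-148a-5p from its 5′ side. The rows with these names were taken from the libraries, 2 of the 353 mature miRNAs with counts, and both came from 1 hairpin entry. They were selected on their levels over the stages and on the ratio between the arms, so levels and ratios of miR-148a are given as a description, with no test. The libraries were small RNA of back skin, from over the thoracic spine, of white Pekin ducks (Anas platyrhynchos) at 6 stages of feather growth, with no treatment. Embryos were sampled on day 11 (11EM), day 15 (15EM) and day 20 (20EM), and hatched birds on day 1 (1DB) and at week 4 (4WK) and week 10 (10WK). Each stage had 3 libraries, of which replicate 2 of 20EM was not analysed here, so that 17 of 18 libraries were used, 9 after and 8 before hatch. The sources do not say how many birds stand behind a library or which sex they were, so p-values measure the spread between these libraries. What each test leaves out is given with it.

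In animals, the hairpin of a miRNA is cut to a short duplex of both arms, and one arm is usually kept in an Argonaute protein while the other is degraded. The kept arm finds messenger RNAs mainly through its seed, the bases near its 5′ end. miR-148a-3p is the arm usually described in mammals, where it is known for acting on the DNA methyltransferase DNMT1, on the LDL receptor in the liver, on fat cell formation and on MITF, the master regulator of pigment cells. miR-148a-5p is the arm that mammalian studies treat as the passenger strand. The sequences of both arms are shown because they define what was counted, with the seed (bases 2 to 8) in capitals. They are the chicken sequences of miRBase as listed by the study, to which the duck reads were matched.
miR-148a-3p: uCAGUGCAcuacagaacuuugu
miR-148a-5p: aAAGUUCUgugacacucagacu

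Both arms are 22 nt long. RNAduplex predicted 15 base pairs between them, over bases 1 to 17 of miR-148a-5p and bases 2 to 21 of miR-148a-3p. Neither seed was found in another of the 328 miRNAs with counts and a listed sequence. The closest other mature sequence differed from miR-148a-3p at 10 positions and from miR-148a-5p at 11, compared base by base from the 5′ end, so that neither arm had a near-identical copy among them. The 6 bases AGUGCA, read on the given strand only and starting at base 3 of miR-148a-3p, were found in the first 8 bases of 7 of these miRNAs (2.13%). The other 6 are miR-130a-3p, miR-130b-3p, miR-130c-3p, miR-301a-3p, miR-301b-3p and miR-454-3p, in which the bases start 1 position earlier. The following pair, with bases 2 to 8 in capitals, shows this offset.
miR-454-3p: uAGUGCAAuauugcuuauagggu
miR-301a-3p: cAGUGCAAuaauauugucaaagcau

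miR-148a-3p was among the most abundant miRNAs at every stage. Its level is given in CPM, the count times 1000000 divided by all counts on miRNAs in the library, of which there were between 3072942 and 15839714. Its mean over the 17 libraries was 28604 CPM, the 9th highest of all miRNAs. In single libraries it held a place between 7 and 13 after hatch and between 7 and 11 before hatch. The neighbours in the order of mean CPM were miR-205a, an epithelial miRNA (40896 CPM), and miR-92-3p, of the miR-17-92 family (40840.1 CPM), above it. Below it were miR-21-5p, which is abundant in growing and inflamed tissue (22627 CPM), and miR-146c-5p (21464 CPM).

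The level of miR-148a-3p was 27789.8, 28052 and 29935 CPM in the libraries of 11EM. It was 35752, 33081 and 26539 CPM at 15EM, and 37369 and 38779 CPM at 20EM. The 2 libraries of 20EM were the highest of all 17. After hatch, the level was 32751.5, 28102 and 29117 CPM at 1DB, 25563, 30126 and 20631 CPM at 4WK, and 20444, 18597.5 and 23642.5 CPM at 10WK. All 3 libraries of 10WK were below every embryonic library, whereas 1DB and 4WK overlapped with 11EM and 15EM.

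**Figure D1:**
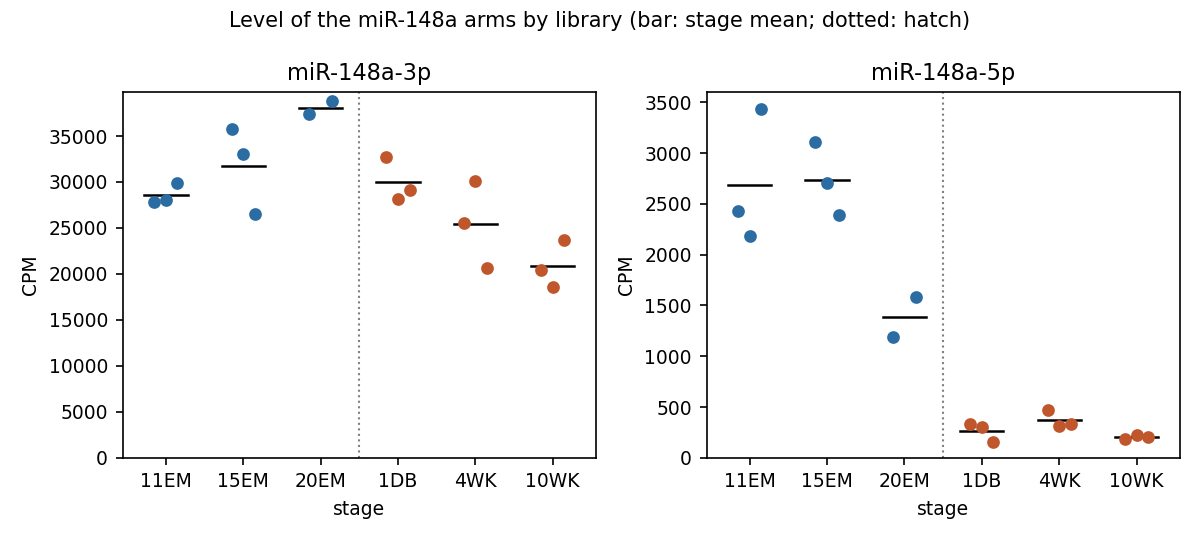
Level of miR-148a-3p (left) and miR-148a-5p (right) in CPM of the library total (vertical axes, from 0) in each library, by stage (horizontal axes); points are libraries, bars are stage means, and libraries after hatch are orange and those before hatch blue. The 3p arm stayed between 18597.5 and 38779 CPM, while the 5p arm was at most 473 CPM after hatch and at least 1193 CPM before hatch.

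The stage means of miR-148a-3p, in order, were 38074 ± 997 CPM at 20EM (SD, n = 2), 31791 ± 4740.4 at 15EM, 29990 ± 2445 at 1DB, 28592 ± 1170.4 at 11EM, 25439.9 ± 4749 at 4WK and 20895 ± 2553 at 10WK (SD, n = 3 each). Only 20EM and 15EM, the first neighbours in this order, had ranges that did not overlap. Over the periods, the libraries averaged 25442 ± 4927 CPM after hatch (n = 9) and 32162 ± 4739 CPM before hatch (n = 8), and the ranges overlapped. From the stage means of log2 CPM, the level after hatch was lower by 0.38 on the log2 scale (a difference of -0.38, with an SD within stages of 0.18). The size of this difference rests on the denominator. It was -0.18 with library sizes normalized by the trimmed mean of M-values (TMM), -0.07 with DESeq2 size factors and -1.75 per clean read, since the counts on miRNAs made up between 11.5% and 32.5% of the clean reads after hatch, against between 24.8% and 64.5% before hatch. Between successive stages the log2 differences of miR-148a-3p were 0.14 for 15EM against 11EM, 0.27 for 20EM against 15EM, -0.35 for 1DB against 20EM, -0.25 for 4WK against 1DB and -0.27 for 10WK against 4WK. Per clean read, the differences of 20EM against 15EM (-0.38) and of 10WK against 4WK (0.10) changed sign.

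miR-148a-5p followed a different course. Its level was 2432, 2187 and 3438 CPM at 11EM, 3109.99, 2709 and 2389 CPM at 15EM, and 1193 and 1588 CPM at 20EM. After hatch it was 331, 299.9 and 159 CPM at 1DB, 473, 313 and 329.7 CPM at 4WK, and 185, 224 and 209.6 CPM at 10WK. Every library after hatch was below every library before hatch, and the libraries of 20EM lay between those of the earlier embryos and the hatched birds. The fewest reads on this arm in any library were 644, so that counting error was small beside the spread between libraries. In single libraries it held a place between 71 and 96 after hatch and between 39 and 57 before hatch, and its mean over the 17 libraries (1269 CPM) was the 59th highest.

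The order of the stage means of miR-148a-5p was 15EM (2736 ± 361 CPM), 11EM (2686 ± 663), 20EM (1390.4 ± 279, n = 2), 4WK (372 ± 88.0), 1DB (263 ± 91.6) and 10WK (206 ± 19.5; SD, n = 3 where not stated). Neighbours overlapped in this order, except 11EM with 20EM and 20EM with 4WK. The libraries averaged 280.4 ± 97.1 CPM after hatch (n = 9) and 2381 ± 740.3 CPM before hatch (n = 8). From the stage means of log2 CPM, the difference after against before hatch was -3.01 (SD within stages 0.34), which is 8.06-fold lower after hatch. The largest step was 1DB against 20EM, with a log2 difference of -2.46 (5.49-fold lower), after a step of -0.98 for 20EM against 15EM. The other log2 differences were 0.05 for 15EM against 11EM, 0.54 for 4WK against 1DB, which changed sign per clean read (-0.33), and -0.83 for 10WK against 4WK. With TMM, the difference over hatch in the edgeR fit was -2.80, and for miR-148a-3p it was -0.17. In whole skin, fewer cells of a type and less RNA per cell cannot be told apart.

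Ranges that do not overlap were frequent in these libraries. Of the 252 miRNAs tested, those that reached 1 CPM in 2 or more libraries, 21% had every library after hatch below every library before hatch, as miR-148a-5p had and miR-148a-3p had not. Between successive stages, the ranges of 50.8% of them did not overlap for 15EM and 11EM, 57.5% for 20EM and 15EM, 66.3% for 1DB and 20EM, 48.8% for 4WK and 1DB and 26.2% for 10WK and 4WK. Both arms of miR-148a had no overlap between 20EM and 15EM and between 1DB and 20EM, and miR-148a-5p also between 10WK and 4WK. Since miR-148a was selected on these levels, its place among these shares is a description.

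**Figure D2:**
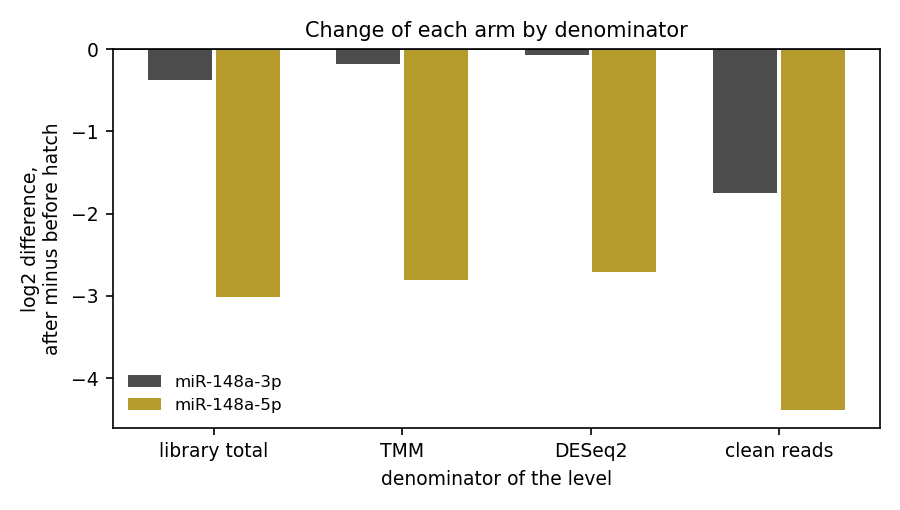
Log2 difference of miR-148a-3p (grey) and miR-148a-5p (yellow), after minus before hatch (vertical axis), with the level taken per library total, TMM-normalized library size, DESeq2 size factor or clean read (horizontal axis). All 8 bars are below 0, and the distance between the arms is the same with each denominator, while the bar of miR-148a-3p ran from -0.07 with DESeq2 size factors to -1.75 per clean read.

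The ratio between the arms does not depend on the denominator. At 11EM there were 8.75, 7.80 and 11.5 reads of miR-148a-5p per 100 reads of miR-148a-3p. There were 8.70, 8.19 and 9.003 at 15EM, and 3.19 and 4.09 at 20EM. The ratio at 20EM was thus below that of each earlier library. It was 1.01, 1.07 and 0.545 at 1DB, 1.85, 1.04 and 1.60 at 4WK, and 0.907, 1.204 and 0.886 at 10WK. All 9 libraries after hatch were below all 8 before hatch, and the lowest was replicate 3 of 1DB. Counting error was small, as in the shallowest library, replicate 3 of 10WK, where miR-148a-5p made up 0.879% of the reads of both arms (95% Wilson interval 0.814% to 0.949%). PCR reads are not independent molecules, so such intervals cover counting error only.

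**Figure D3:**
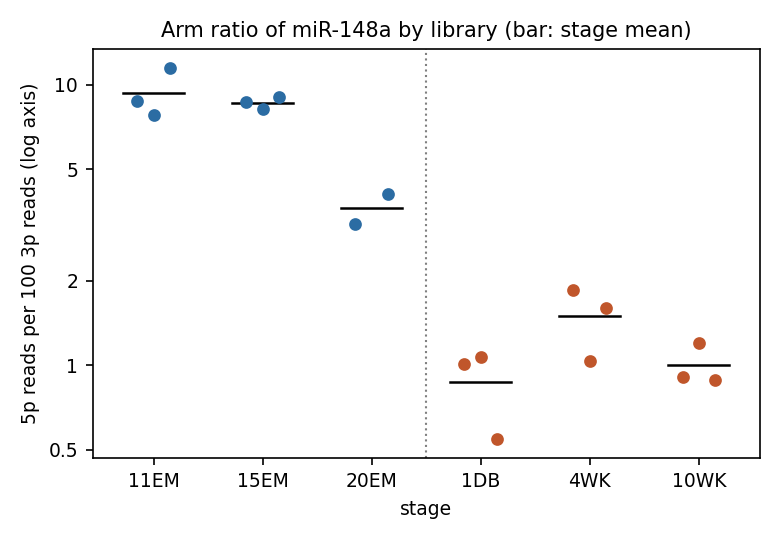
Reads of miR-148a-5p per 100 reads of miR-148a-3p in each library (vertical log axis), by stage (horizontal axis); points are libraries, bars are stage means, and libraries after hatch are orange and those before hatch blue. Libraries after hatch lay between 0.545 and 1.85, those of 20EM at 3.19 and 4.09, and those of 11EM and 15EM between 7.80 and 11.5.

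The mean ratio was 1.12 ± 0.390 reads of miR-148a-5p per 100 of miR-148a-3p after hatch (SD, n = 9) and 7.65 ± 2.72 before hatch (n = 8). By stage it was 9.34 ± 1.91 at 11EM, 8.63 ± 0.411 at 15EM, 3.64 ± 0.638 at 20EM (n = 2), 0.874 ± 0.286 at 1DB, 1.49 ± 0.416 at 4WK and 0.999 ± 0.178 at 10WK (n = 3 where not stated). The difference of the log2 ratio, after minus before hatch, was -2.63 (SD within stages 0.35), and a step of -1.25 for 20EM against 15EM came before the step of -2.11 for 1DB against 20EM. Ratios of the stages after hatch overlapped with those of the next stage in order. The sum of the arms was mostly miR-148a-3p, with a mean of 31278 ± 1815 CPM at 11EM, 39464.5 ± 1276 CPM at 20EM and 21101 ± 2548 CPM at 10WK.

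By the percent of raw reads that the study kept as clean reads, 12 libraries were under 96% and 5 were over 98%; the labels name no batch, so what sets these groups apart is not stated. Among the libraries under 96%, the ratio was 1.03 ± 0.299 after hatch (n = 8) and 7.19 ± 2.71 before hatch (n = 4), and the ranges of the periods did not overlap. Among those over 98%, the single library after hatch had 1.85 and the 4 before hatch averaged 8.12 ± 3.05. For miR-148a-3p, the level under 96% was 25426 ± 5267 CPM after hatch and 29937 ± 4998 CPM before hatch. Over 98% it was 25563 CPM in the library after hatch and 34387 ± 3772 CPM before hatch. For miR-148a-5p, the level under 96% was 256 ± 69.4 CPM after hatch and 2050.3 ± 581 CPM before hatch, and over 98% it was 473 CPM after hatch and 2711 ± 806 CPM before hatch.

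Marker miRNAs of other cell types were summed in each library, and the edgeR test described below was read for each; over all 252 miRNAs tested, 21% were higher and 29.4% lower after hatch by this test. The epithelial list, with the skin miRNAs miR-203a and miR-205a, was present in every library (summed level 36358 to 87432.5 CPM after hatch and 21955 to 118963 CPM before hatch). The sum of 3 blood miRNAs (miR-451 and both arms of miR-144) was 9382 to 21235 CPM after hatch and 1830.0 to 4289 CPM before hatch, and 1 of the 3 (miR-451) rose. That of 4 leukocyte miRNAs, of which 3 rose, was 1014 to 9308 CPM after hatch and 448 to 742 CPM before hatch. That of 2 neural miRNAs, which both fell, was 37.4 to 105 CPM after hatch and 141 to 397 CPM before hatch. miR-144-5p, the leukocyte miRNA miR-155, the muscle miRNA miR-206 and the liver miRNA miR-122-5p were at 0 in at least 1 library. The sums of the other lists overlapped between the periods, which does not mean that they were steady over the stages. Among their members, both cartilage miRNAs and the liver miRNA rose, 3 of 7 muscle miRNAs rose and 1 fell, 1 of 6 epithelial miRNAs rose and 1 fell, and the 3 mesenchymal and 2 endothelial miRNAs did not pass. The cartilage sum ran from 3715 to 19596 CPM at 11EM, against 8742.5 to 13086 CPM after hatch. The epithelial sum was 21955 to 44825 CPM at 11EM and 87969.5 to 118963 CPM at 15EM. It was 77286 to 86077 CPM at 20EM and 36358 to 47689 CPM at 1DB. The muscle sum was 2420 to 6054 CPM at 20EM and 9114 to 10507 CPM at 1DB, and the endothelial sum 21996 to 24639 and 27151 to 31093 CPM. The mesenchymal sum overlapped at this step. The call of the liver miRNA was lost in 10 of 23 alternatives, as given below. The part of these lists in the levels of miR-148a was not tested.

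The arm ratio was then set beside that of other miRNAs with both arms at a mean of at least 10 CPM. These were 48 pairs, miR-148a included, and the minor arm was the one with the lower mean. The ratio of minor to main arm of miR-148a varied by 3.46 log2 units over the stage means, the 5th widest range, against a median of 1.27 over the other 47 pairs. The difference of -2.63 over hatch was the second lowest. Among the other 47, the differences ran from -3.32 to 2.48 with a median of -0.36, and 32 were below 0. Of all 48 pairs, 33.3% had every ratio after hatch below every ratio before hatch, as miR-148a had, and 4.17% had every ratio above. Between successive stages the ratios of 39.6% of the pairs did not overlap for 15EM and 11EM, 58.3% for 20EM and 15EM, 70.8% for 1DB and 20EM, 33.3% for 4WK and 1DB and 25% for 10WK and 4WK, and miR-148a was among those without overlap at 20EM and 15EM and at 1DB and 20EM.

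The ratio varied most in miR-100, miR-30e and miR-133a and least in miR-200b, miR-199 and miR-140. In miR-100, of the miR-99/100 family, the log2 ratio of the 3p to the 5p arm had stage means of -5.45 at 11EM and -9.31 at 10WK, a lower ratio later as in miR-148a. In the muscle miRNA miR-133a the ratio of the 5p to the 3p arm was likewise lower later, with a stage mean of -6.45 at 11EM and -10.12 at 10WK. In miR-30e the ratio of the 5p to the 3p arm went the other way, with -5.56 at 11EM and -1.56 at 10WK. Reads on miR-100-5p and miR-133a-3p differ at 1 position from another mature miRNA, miR-99a-5p and miR-133c-3p, so that their counts are uncertain. The ratios of the epithelial miR-200b, the mesenchymal miR-199 and the cartilage miR-140 varied by 0.36, 0.45 and 0.46 log2 units over the stage means.

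**Figure D4:**
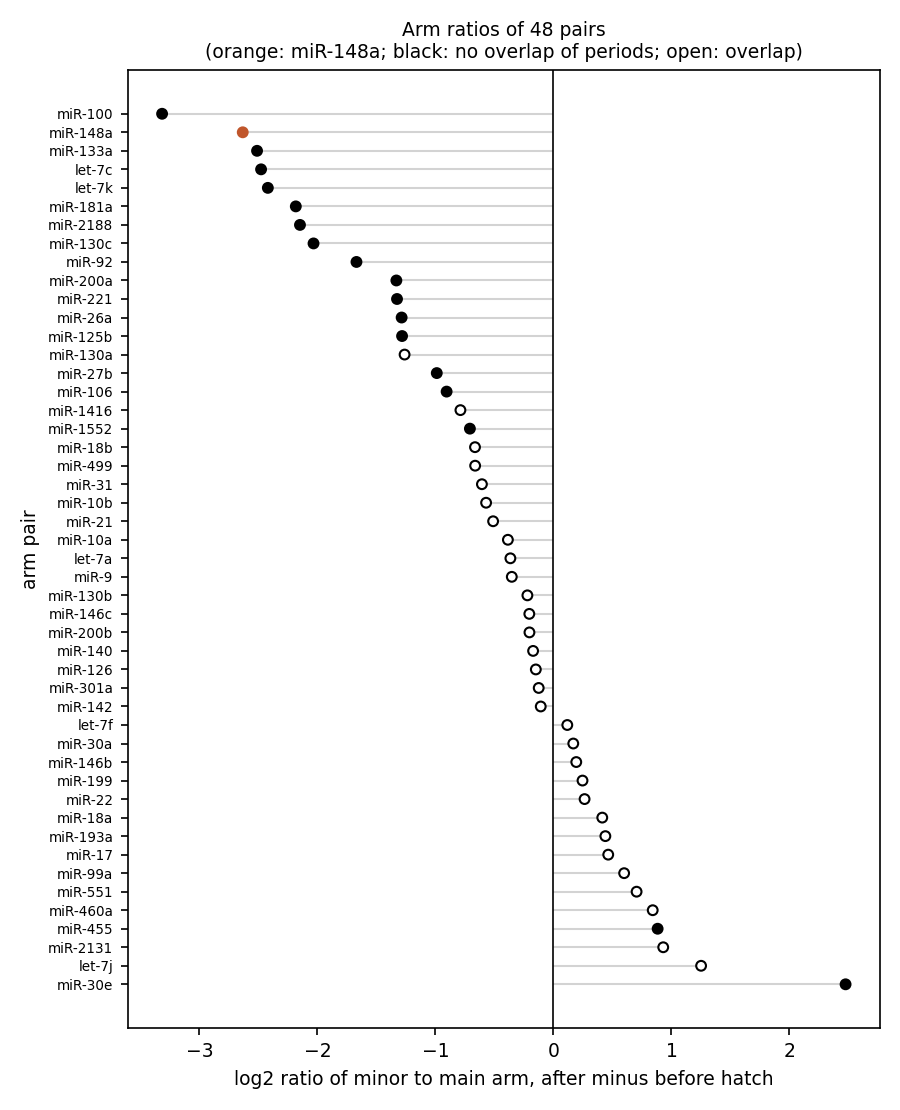
Difference of the log2 ratio of minor to main arm, after minus before hatch (horizontal axis), for the 48 arm pairs (vertical axis, sorted); miR-148a is orange, black points are other pairs whose libraries did not overlap between the periods, and open points are pairs whose libraries did. miR-148a is at -2.63, next to miR-100 at -3.32, and miR-30e is at the other end at 2.48.

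Of the miRNAs in the lists described next, 9 had both arms at a mean of at least 10 CPM. The ratio of minor to main arm was lower after hatch in 5 of them at an adjusted p under 0.05 (exact permutation test of the libraries, two-sided, 24310 splits, Benjamini-Hochberg over the 47 pairs other than miR-148a), and 4 did not pass. Adjusted over the 9 pairs, the count was 5 as well. The splits took no account of stage, so libraries of the same stage counted as independent. These p-values therefore do not measure the spread between stages. By the same test the ratio was lower in 44.7% of the 47 pairs, so that lower ratios were frequent among all pairs and the count is no result about the listed ones. The 5 were miR-130c, miR-26a, miR-27b, miR-130a and miR-21. In miR-130c, which shares the offset bases with miR-148a-3p, the mean log2 ratio of the 5p to the 3p arm was -7.99 ± 0.68 after hatch (SD, n = 9) and -5.87 ± 0.53 before hatch (n = 8). Its minor arm, miR-130c-5p, had a mean of 12.1 CPM, near the limit of 10 CPM, and was lower after hatch (log2 difference -1.87). On average it was below this limit after hatch, so the pair passed the limit through its level before hatch. That favours a lower ratio after hatch, so no p-value is given for miR-130c and its place among the 5 is a description. Other pairs in the share of 44.7% can have passed the limit in the same way. The main arm of miR-130c differs at 1 base from miR-130a-3p, so reads can be split between them. The ratio of miR-130c was lower in all 9 libraries after hatch than in any before hatch. In miR-130a the ratio was -5.49 ± 0.46 after and -4.12 ± 0.62 before hatch (exact p = 0.000576, adjusted p = 0.00129), with overlap. The differences of the 9 pairs had a median of -0.55. The 4 that did not pass were miR-130b (-0.26, adjusted p = 0.0748), let-7a (-0.36, adjusted p = 0.17), miR-301a (-0.24, adjusted p = 0.495) and miR-30a (0.12, adjusted p = 0.536; exact permutation test). In the 12 libraries under 96% alone, the difference of miR-130b (-0.40) passed as well, which makes 6 of 9 with p adjusted over the 9. That count was also 6 without replicate 3 of 20EM or replicate 1 of 4WK. No share over all pairs is given for these sets of libraries, so these counts are likewise no result about the listed pairs.

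The lists held 23 miRNAs that share the offset bases with miR-148a-3p or are known for the same processes as miR-148a. These miRNAs were compared after against before hatch in 1 edgeR fit over all miRNAs. The spread in this fit is that between libraries of the same stage. Its SEs and p-values therefore do not measure the spread between the stages of a period. Differentially expressed miRNAs (DE miRNAs) were those changed by 2-fold or more with an adjusted p under 0.05. Of the 23, 7 rose, 5 fell and 11 did not pass. Among the 7, miR-204 and miR-211 have the same sequence and are 1 measurement, as described below. Of all 252 miRNAs tested, 21% rose and 29.4% fell, and the median log2 fold change was 0.36 over the 23 and -0.16 over all. Changes below are from TMM; with library totals the median of all miRNAs was -0.37 and with DESeq2 it was -0.04.

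Of the 6 miRNAs that share AGUGCA with miR-148a-3p, 4 fell (median log2 fold change -1.72). miR-454-3p had 2549 ± 930.4 CPM after hatch and 21854 ± 6369 CPM before hatch (log2 fold change -2.85 ± 0.15 SE, edgeR adjusted p = 1.89e-10). miR-301a-3p had 443 ± 113 CPM after and 3473 ± 546 CPM before hatch (-2.75 ± 0.12, edgeR adjusted p = 6.23e-11). In both, the step of 1DB against 20EM passed the test, with log2 fold changes of -1.62 and -2.31. miR-130b-3p fell to 1889.9 ± 822 CPM after hatch, against 8006 ± 1750.3 CPM before hatch (-1.91 ± 0.08, edgeR adjusted p = 5.1e-11), and miR-130a-3p to 671 ± 239.8 CPM, against 2165 ± 301 CPM (-1.53 ± 0.09, edgeR adjusted p = 6.11e-10). miR-301b-3p (-0.47) and miR-130c-3p (0.36) stayed within a fold change of 2, although miR-301b-3p fell at 1DB against 20EM (-1.05, edgeR adjusted p = 0.00191). miR-130a-3p and miR-130c-3p differ at 1 base, as do miR-301a-3p and miR-301b-3p, so reads can be split between them.

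Of 7 miRNAs known for promoting fat cell formation in mammals, 2 rose and 5 did not pass (median 0.18). miR-21-5p had 30967 ± 18020 CPM after and 13245 ± 3169 CPM before hatch (log2 fold change 1.25 ± 0.10, edgeR adjusted p = 2.09e-08). The ranges of the periods overlapped (12671.5 to 67414 CPM after and 9079.8 to 17330 CPM before hatch). Its mean was 14529 CPM at 20EM and 14556 CPM at 1DB (log2 fold change 0.24, edgeR adjusted p = 0.297). The rise came later, with 51876 CPM at 4WK (1.72 against 1DB) and 26470 CPM at 10WK. miR-204 had 191.8 ± 87.5 CPM after and 54.9 ± 31.7 CPM before hatch (2.13 ± 0.20, edgeR adjusted p = 1.29e-07). Its ranges overlapped as well (96.7 to 335.6 CPM after and 24.4 to 108.1 CPM before hatch). It fell at 15EM against 11EM (-1.66, edgeR adjusted p = 0.000651), from a mean of 89.0 to 29.8 CPM, and its mean at 1DB was 121.6 CPM. miR-107-3p (-0.94), miR-26a-5p (0.56), miR-103-3p (-0.25), miR-30d (0.18) and miR-30a-5p (0.11) were within a fold change of 2, and with library totals miR-30a-5p (-0.09) and miR-30d (-0.01) had the other sign. miR-103-3p and miR-107-3p differ at 1 base, as do miR-30a-5p and miR-30d, so reads can be split between them. Of 4 miRNAs known for restraining fat cells, miR-130a-3p and miR-130b-3p fell, as above, and miR-27b-3p (0.94) and let-7a-5p (0.82) did not pass; let-7a-5p has the same sequence as let-7j-5p. miR-27b-3p passed with DESeq2 (1.05) and where 10 CPM in 3 libraries were required (1.045). It also passed without replicate 2 or 3 of 11EM, replicate 3 of 1DB, or replicate 2 or 3 of 4WK (1.01 to 1.10). miR-107-3p passed with library totals (-1.13) and with limma (-1.13). The median of the 4 was -0.35.

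Of 5 miRNAs known for acting on DNA or histone methyltransferases in mammals, as miR-148a-3p is, the 3 of the miR-29 family rose and miR-101-3p (0.53) and miR-26a-5p (0.56) did not pass (median 4.08). miR-29a-3p had 295 ± 198 CPM after hatch and 11.1 ± 6.75 CPM before hatch (log2 fold change 4.64 ± 0.21, edgeR adjusted p = 8.38e-11). miR-29b-3p (4.94 ± 0.30) and miR-29c-3p (4.08 ± 0.20) rose with it, and miR-29a-3p and miR-29c-3p differ at 1 base. miR-29b-3p had 43.1 ± 29.3 CPM after and 1.41 ± 1.21 CPM before hatch. Its lowest library before hatch had 0.253 CPM, so its fold change rests on few counts there. For the MITF pathway of pigment cells, miR-204 and miR-211 rose and miR-137-3p, at 0.875 CPM after and 1.62 CPM before hatch, did not pass (-1.02). It passed without replicate 2 of 10WK (-2.47), with library totals (-1.24) and with limma (-2.46). The median of the 3 was 2.12. miR-204 and miR-211 have identical mature sequences in the reference, and the count of miR-211 was within 4.07% of the value of miR-204 divided by its 2 hairpins in every library, so they are 1 measurement. Of the lipid miRNAs, miR-33-5p, which sits in the SREBF genes of mammals and acts on cholesterol export, fell to 26.4 ± 8.78 CPM after hatch, against 65.3 ± 24.7 CPM before hatch (-1.11 ± 0.16, edgeR adjusted p = 1.81e-05). The ranges of miR-33-5p overlapped (15.8 to 38.4 CPM after and 33.3 to 96.8 CPM before hatch). It stayed just within a fold change of 2 with DESeq2 (-0.99) and where 10 CPM in 3 libraries were required (-0.99). The same held without replicate 3 of 11EM, replicate 1 of 20EM or replicate 3 of 4WK (-0.99 to -0.91). The liver miRNA miR-122-5p passed with at most 149 counts in a library and 0 in 3 libraries (3.14 ± 6.26 CPM after and 1.202 ± 1.84 CPM before hatch, edgeR adjusted p = 0.0392), and lost the call in 10 of 23 alternatives. Among these were the fits without replicate 2 of 15EM, 1DB, 4WK or 10WK and without either library of 20EM (edgeR adjusted p between 0.058 and 0.199).

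**Figure D5:**
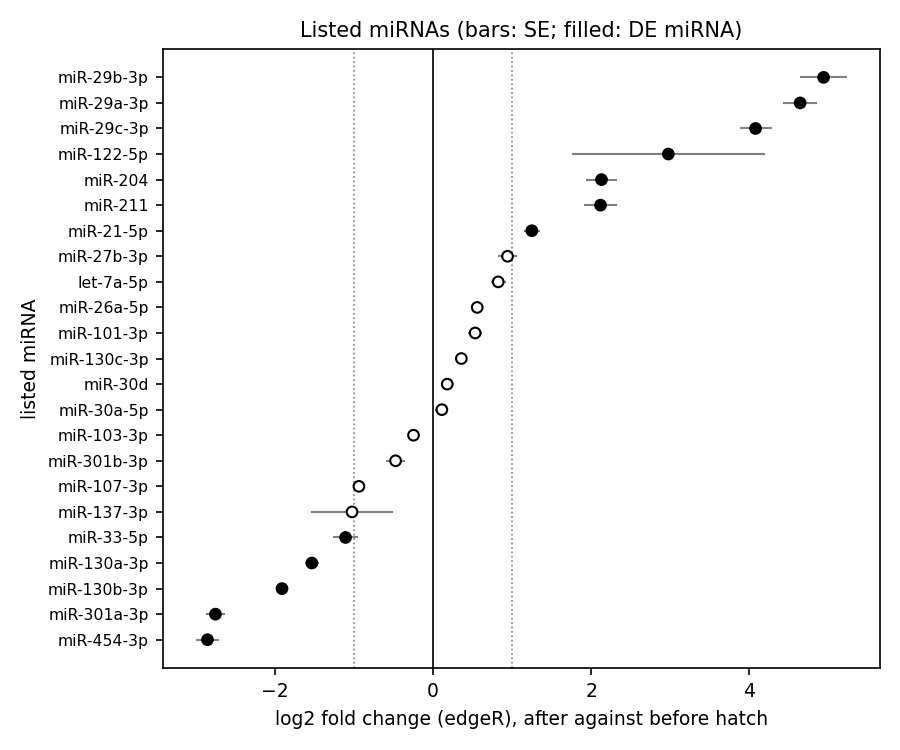
Log2 fold change after against before hatch (horizontal axis) from the edgeR fit for the 23 listed miRNAs (vertical axis, sorted), with bars for the SE; filled points passed the test and open points did not, and dotted lines mark a fold change of 2. The miR-29 family is at the upper end (4.08 to 4.94) and miR-454-3p and miR-301a-3p are at the lower end (-2.85 and -2.75).

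Between successive stages, the share of all 252 miRNAs that were DE miRNAs was 28.6% for 15EM against 11EM, 13.9% for 20EM against 15EM, 28.6% for 1DB against 20EM, 22.2% for 4WK against 1DB and 1.19% for 10WK against 4WK (edgeR, either direction). Of the 23 listed miRNAs, 6, 1, 10, 8 and 0 passed in these steps. For 10WK against 4WK, 8 of the 23 and 52 of all 252 miRNAs had an unadjusted p under 0.05 in edgeR. In this step DESeq2 called 1 of the 23 and limma 0. For 20EM against 15EM, the DE miRNA was miR-29c-3p, and DESeq2 called 3 of the 23. No share over all miRNAs is given for DESeq2 or limma in these steps, so their counts are no result about the listed miRNAs.

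The miRNAs with a pattern most like that of each arm were found from Pearson's r of log2 TMM CPM over the 17 libraries, among 117 other miRNAs with a mean of at least 100 CPM. The libraries share their stage and a common scaling, so r is a description. For miR-148a-5p the 5 highest were miR-100-3p (r = 0.98), miR-18b-5p (0.97), miR-18a-5p (0.97), miR-107-3p (0.97) and miR-181a-3p (0.96), and 15 of the 117 had an r of at least 0.9. miR-100-3p and miR-181a-3p are themselves minor arms, and miR-18a-5p and miR-18b-5p belong to the miR-17-92 family, which is known for cell proliferation. Reads on miR-107-3p can be split with miR-103-3p, which differs at 1 base. Since the libraries after hatch stood apart from those before it, r was also taken within the periods, and for miR-100-3p it was 0.72 after (n = 9) and 0.88 before hatch (n = 8). For miR-181a-3p it was 0.04 after and 0.81 before hatch. The period before hatch still holds the step to 20EM. With the stage means taken out, r with miR-148a-5p was 0.42 for miR-100-3p, 0.34 for miR-18b-5p, 0.13 for miR-107-3p, 0.07 for miR-18a-5p and -0.34 for miR-181a-3p.

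No miRNA came close to miR-148a-3p, whose highest r was 0.69 with miR-181a-5p, followed by miR-455-5p (0.63), miR-16c-5p (0.59), miR-218-5p (0.54) and miR-460a-5p (0.52). The lowest were miR-31-5p (-0.60), miR-30c-1-3p (-0.57) and miR-21-3p (-0.56). With the stage means taken out, r was 0.15 for miR-31-5p, 0.01 for miR-30c-1-3p and 0.21 for miR-21-3p. It was then 0.36 for miR-455-5p, 0.22 for miR-16c-5p, -0.21 for miR-218-5p and -0.23 for miR-460a-5p. miR-181a-5p, a miRNA of lymphocytes and many other tissues, had stage means of 86756, 73824, 91232, 90069.5, 49125 and 46539 CPM in the order of the stages. Within the periods its r with miR-148a-3p was 0.74 after and 0.29 before hatch, and 0.22 with the stage means taken out. The arms of miR-148a had an r of 0.24 with each other over the 17 libraries, 0.07 after (n = 9) and -0.65 before hatch (n = 8). With the stage means taken out, the r between the arms was 0.09.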

How the data were processed

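Small RNA reads were trimmed and filtered by the authors, who discarded reads under 18 nt and those hitting other noncoding RNA (2 mismatches allowed) and assigned what was left to chicken entries of miRBase 21. The deposited values are counts, without normalization, for every mature arm of a hairpin. Here counts were summed by mature name and divided by the library total (CPM); 3 counts correspond to 0.189 to 0.976 CPM. Totals of clean reads were taken from the study's read statistics. Log2 values of members used a pseudocount of 0.5 counts and were averaged within stages, then over stages.

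The test between stages was the quasi-likelihood test of edgeR 4.0.16 under R 4.3.3, with TMM, 6 stage groups in 1 fit and Benjamini-Hochberg adjustment over the 252 miRNAs that reached 1 CPM in 2 or more libraries. Each standard error is the log2 fold change over the root of its F value. Arm ratios were tested with scipy 1.17.1, the duplex was predicted with ViennaRNA 2.7.2, and figures were drawn with matplotlib 3.10.9. The edgeR comparison was tested on simulated data.

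The members and all lists were chosen with earlier results of these data known. miRNAs named are the members, the listed miRNAs, the 5 with the highest r with each arm, the 3 with the lowest r with miR-148a-3p, the 3 arm pairs that varied most and the 3 that varied least, and 2 neighbours in abundance on each side. Alternatives were DESeq2 1.42.0, limma 3.58.1 (log2 CPM, zeros replaced by 0.01), library totals, clean reads, other filters and averages, the clean-read percent, a replicate block and leaving out each library; those for single steps of the lists and for the arm tests were added after seeing the data. Genome positions were not used here.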

Additional observations from a re-analysis of the deposited data

How the results depend on the processing

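For the level of miR-148a-3p after against before hatch (-0.38), the log2 difference was -0.18 with TMM, -0.073 with DESeq2 size factors and -1.753 per clean read, and between -0.42 and -0.33 without any one library. For miR-148a-5p (-3.01) it was -4.385 per clean read and between -3.08 and -2.90 without any one library. The log2 ratio of the arms (-2.63) was -3.02 from medians over libraries and between -2.69 and -2.53 without any one library. Per clean read, the signs turned for miR-148a-3p at 20EM against 15EM (-0.38) and 10WK against 4WK (0.10) and for miR-148a-5p at 4WK against 1DB (-0.33); the share of clean reads on miRNAs differed between these libraries. The number of DE miRNAs (127) was between 94 and 132 over the alternatives, with 94 when 10 CPM in 3 libraries were required, which tests fewer miRNAs; of the listed, 10 to 13 passed (12 in the report). For 20EM against 15EM the listed DE miRNAs numbered 3 with DESeq2 and 0 with library totals, and for 10WK against 4WK 1 with DESeq2. No share over all miRNAs is given for these alternatives, and the cause was not tested. Fold changes turned sign for miR-30a-5p (-0.0881 with limma and -0.0887 with library totals) and miR-30d (-0.0117 and -0.0148). Of 550 fold changes of listed miRNAs over the alternatives, 27 crossed the threshold, all in miR-27b-3p, miR-33-5p, miR-107-3p, miR-122-5p and miR-137-3p. Of the 5 miRNAs most like miR-148a-5p, 3 remained with Spearman's rho. On average, libraries with the same replicate number did not deviate together (mean r of -0.03 over 40 pairs). Values were centred within each stage, so the mean of 0.01 over the 80 other pairs largely follows from this one and is no separate reference. Single pairs varied widely, from -0.383 to 0.72 with the same number and from -0.725 to 0.725 with different numbers. With a replicate block 11 listed miRNAs passed, and the call it lost was that of miR-122-5p (log2 fold change 2.17, edgeR adjusted p = 0.113). 20EM had 2 libraries, miR-122-5p and miR-137-3p had few counts, and miR-29b-3p had few before hatch, which limits the precision of their values.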

Other observations

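Other arm pairs with a large difference over hatch are given here as values; they were chosen after their values were seen. The log2 ratio of minor to main arm, after minus before hatch, was -2.48 in let-7c, -2.42 in let-7k, -2.18 in miR-181a and -2.15 in miR-2188. In let-7k and miR-2188 the main arm was higher after hatch (log2 differences of 2.65 and 2.12 in CPM) while the minor arm differed little (0.23 and -0.02). In let-7c and miR-181a the minor arm was lower after hatch (-2.48 and -2.68) while the main arm differed less (0.00 and -0.50), as in miR-148a (-3.01 and -0.38). Over the 47 pairs other than miR-148a, the median log2 difference was -0.52 for minor arms and 0.00 for main arms. These values were not tested.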
